A study of Mus musculus with 18 samples.

Results

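The 7 genes described here encode the core pluripotency transcription factors OCT4 (gene Pou5f1), NANOG, SOX2 and SALL4 and the Myc family members MYC, MYCN and MYCL. They were taken by name from the 19630 genes of the deposited table, and all 7 passed the filter on low counts. The deposited data are 18 mRNA-seq libraries from mouse, in 6 groups of 3. In 4 groups embryonic stem (ES) cells were cultured on feeders labelled p53-defective, with ATN161 (an inhibitor of integrin α5β1) replacing the feeders, on control feeders that were then removed, or on control feeders throughout. In the other 2 groups the feeders, which are embryonic fibroblasts, were sequenced alone, either p53-defective or control. The labels give both co-cultures as a mixture of ES cells and fibroblasts and the groups with ATN161 or with feeders removed as ES cells. They name no strain or line, do not say which alteration makes the feeders p53-defective, and do not say how feeders were removed or whether replicates were separate cultures. P-values therefore measure only the spread between these libraries, which may be technical. The series title puts the comparisons to the question of how p53 in the environment of ES cells bears on their pluripotency.

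OCT4 and SOX2 bind DNA side by side and hold ES cells in the pluripotent state together with NANOG, and SALL4, a zinc finger factor, binds many of the same genes and activates Pou5f1. MYC, MYCN and MYCL pair with MAX and bind the E-box CACGTG. They drive growth, ribosome production and cell division, and in mouse ES cells MYCN shares the role of MYC. Feeders are a fibroblast layer that supports ES cells with matrix and secreted factors.

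Promoter sequences are shown for Pou5f1, Nanog and Sox2, the core genes, and for Mycn, the Myc gene whose levels lay closest to theirs. They are the 250 bases before the start of transcription in RefSeq on GRCm38.p6, at chr17:35505782-35506031 (plus strand) for Pou5f1, chr6:122707239-122707488 (plus strand) for Nanog, chr3:34649745-34649994 (plus strand) for Sox2 and chr12:12941837-12942086 (minus strand) for Mycn. They run 5′ to 3′ on the strand of the gene. Capitals mark matches, on either strand, to 4 motifs. ATGCAAA is part of the octamer that OCT4 binds, and the SOX-OCT composite is a SOX motif, 1 free base and ATGCAAA. The others are the E-box CACGTG and AGGTCA, the half-site of nuclear receptors.
Pou5f1: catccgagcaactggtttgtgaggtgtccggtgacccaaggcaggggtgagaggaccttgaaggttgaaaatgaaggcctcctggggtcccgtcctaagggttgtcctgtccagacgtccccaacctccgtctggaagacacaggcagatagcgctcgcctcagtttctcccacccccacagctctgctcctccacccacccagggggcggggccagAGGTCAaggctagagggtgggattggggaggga
Nanog: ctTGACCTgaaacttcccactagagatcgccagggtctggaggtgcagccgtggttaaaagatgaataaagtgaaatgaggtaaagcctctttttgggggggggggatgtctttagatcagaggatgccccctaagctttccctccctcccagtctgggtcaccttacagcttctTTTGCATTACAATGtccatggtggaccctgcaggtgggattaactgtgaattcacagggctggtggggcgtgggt
Sox2: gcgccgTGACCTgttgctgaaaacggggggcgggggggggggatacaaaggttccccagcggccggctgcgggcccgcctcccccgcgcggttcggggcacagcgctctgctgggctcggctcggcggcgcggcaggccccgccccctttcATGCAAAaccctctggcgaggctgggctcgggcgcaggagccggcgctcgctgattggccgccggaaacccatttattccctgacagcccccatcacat
Mycn: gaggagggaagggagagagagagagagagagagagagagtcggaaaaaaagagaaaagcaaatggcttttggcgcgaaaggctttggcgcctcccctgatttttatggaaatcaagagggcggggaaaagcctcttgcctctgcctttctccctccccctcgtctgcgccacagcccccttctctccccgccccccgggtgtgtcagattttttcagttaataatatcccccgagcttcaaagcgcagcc
The Nanog window held the composite on the opposite strand, from 75 to 62 bases before the start, and ATGCAAA within it. Of 32851 windows of the same length in the table, 0.00609% held the composite, which was 2 windows, both of Nanog. The Sox2 window held ATGCAAA from 99 to 93 bases before the start, and 4.12% of all windows held it. AGGTCA lay in the Pou5f1 window from 33 to 28 bases before the start, in the Nanog window from 248 to 243 and in the Sox2 window from 244 to 239, and in 14.0% of all windows. The E-box, in 6.02% of all windows, had no match in the windows of these 4 genes, and the Mycn window had no match to any of the 4 motifs. The window listed for Mycl also had none, but it lies inside the gene interval given below and is not clearly upstream of the gene. These matches describe the letters of the windows and do not show binding.

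Library totals were 15.12 to 19.83 M (mega) counts. Levels are given in counts per M counts with TMM scaling (CPM), and a gene was called at an adjusted p below 0.05 in edgeR's quasi-likelihood test with Benjamini-Hochberg adjustment over 15389 genes. Trp53, the gene of p53, averaged 296 ± 44.9 CPM in p53-defective feeders and 119 ± 6.76 CPM in control feeders (SD, n = 3 each), and 153 ± 10.8 CPM in ES cells on p53-defective feeders against 293 ± 6.05 CPM in ES cells on control feeders. Its transcript was higher, not lower, in the feeders labelled p53-defective, and since the alteration is not named this level does not check the label. The summed CPM of 12 ES cell markers was 258 to 376 in ES cells on p53-defective feeders, 4960 to 5120 with ATN161, 4180 to 4300 after feeder removal and 2870 to 3060 on control feeders. It was 0.613 to 1.27 CPM in p53-defective feeders and 0.347 to 0.566 CPM in control feeders, with 8 of the 12 at 0 in p53-defective feeders (Zfp42, Dppa5a, Tdgf1 and Utf1 among them) and 7 of the 12 at 0 in control feeders. The summed CPM of 12 fibroblast markers was 24200 to 37700 in ES cells on p53-defective feeders, 2200 to 2340 with ATN161, 5560 to 6080 after feeder removal, 8590 to 8980 on control feeders, 17800 to 23200 in p53-defective feeders and 43400 to 52600 in control feeders. Transcripts of these marker genes were thus present in the groups given as ES cells alone, and which cells they came from was not tested. In mixed cultures fewer ES cells and less RNA per ES cell cannot be told apart. The 6 macrophage markers summed to 117 to 163 CPM in control feeders and to no more than 26 CPM in any other group, with Adgre1 and Ptprc at 0 in p53-defective feeders. Their part in the results below was not tested.

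Pou5f1 (Entrez 18999, chr17:35506032-35510777, GRCm38) encodes the POU factor OCT4, without which mouse ES cells lose pluripotency. Its levels were 43.5, 66.5 and 42.8 CPM in ES cells on p53-defective feeders, 964, 894 and 986 CPM with ATN161, 761, 722 and 733 CPM after feeder removal and 540, 583 and 549 CPM on control feeders. It had 0 counts in all 6 feeder libraries, which allows up to 0.0608 CPM in p53-defective feeders and 0.0574 CPM in control feeders (3 counts over a group). The 4 ES cell groups did not overlap, and every step of the order, ATN161, feeders removed, control feeders, p53-defective feeders, passed the test.

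Nanog (Entrez 71950, chr6:122707489-122714633) encodes a homeodomain factor that sustains self-renewal. It followed the same order, with 38.4, 49.9 and 37.5 CPM in ES cells on p53-defective feeders, 916, 947 and 937 CPM with ATN161, 575, 537 and 604 CPM after feeder removal and 465, 457 and 494 CPM on control feeders. In feeders alone it had 0.635, 0.578 and 1.41 CPM when p53-defective and 0.283, 0.347 and 0.232 CPM when control. Pou5f1 and Nanog have near-identical pseudogenes, so that some of their reads cannot be assigned to 1 locus with certainty.

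Sox2 (Entrez 20674, chr3:34649995-34652461), the HMG-box partner of OCT4, had 13.2, 19.5 and 13.4 CPM in ES cells on p53-defective feeders, 464, 477 and 462 CPM with ATN161, 359, 327 and 344 CPM after feeder removal and 259, 259 and 248 CPM on control feeders. It had 0 counts in the 3 libraries of p53-defective feeders, against 16, 5 and 15 counts in control feeders, or 0.906, 0.289 and 0.869 CPM. The order of the ES cell groups was that of Pou5f1, none of them overlapped, and every neighbour was called.

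Sall4 (Entrez 99377, chr2:168748332-168767201) had 4.97, 5.3 and 8.26 CPM in ES cells on p53-defective feeders, 162, 159 and 154 CPM with ATN161, 184, 187 and 177 CPM after feeder removal and 108, 114 and 109 CPM on control feeders, and 0 counts in all 6 feeder libraries. It departed from the other core genes in that its highest group was the one with feeders removed. That group did not overlap with ATN161, yet the difference missed the threshold (adjusted p = 0.0672).

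Myc (Entrez 17869, chr15:61985341-61990361) ran in another order. Its highest levels were in p53-defective feeders alone, with 338, 320 and 248 CPM, against 50.9, 49.6 and 34.2 CPM in control feeders. ES cell cultures had 100, 97.3 and 103 CPM on p53-defective feeders, 11.3, 10.9 and 12.3 CPM with ATN161, 22.4, 20.5 and 19.9 CPM after feeder removal and 13.9, 15.3 and 14.1 CPM on control feeders. Both co-cultures hold feeder RNA as well as ES cell RNA, and the part of the feeders in these Myc levels was not tested. No 2 neighbouring groups overlapped. Every neighbour in the order p53-defective feeders, ES cells on them, control feeders, feeders removed, control feeder co-culture, ATN161 was called, the last of these only narrowly (adjusted p = 0.0484).

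Mycn (Entrez 18109, chr12:12936093-12941836) lay closer to the core genes than to Myc. It had 12, 14.5 and 10.8 CPM in ES cells on p53-defective feeders, 74.5, 69 and 70.5 CPM with ATN161, 81.6, 76.7 and 77.8 CPM after feeder removal and 49.2, 51.7 and 50.1 CPM on control feeders. In feeders alone it had 4.25, 3.7 and 7.73 CPM when p53-defective and 0.226, 0.752 and 0.753 CPM when control. The groups did not overlap between neighbours. Feeder removal and ATN161 nevertheless missed the threshold (adjusted p = 0.348), and the other neighbours in the order were called.

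Mycl (Entrez 16918, chr4:122995588-123002490) had the narrowest range of CPM among ES cell groups, which on ES-specific scaling it did not, being 12.2-fold higher on p53-defective feeders than after feeder removal. The p53-defective co-culture holds feeder RNA, whose part in this value was not tested. On that scale 87.6% of all genes were higher in it than in control feeder co-culture. Mycl had 9.34, 9.3 and 9.09 CPM in ES cells on p53-defective feeders, 13.6, 12.1 and 13.4 CPM with ATN161, 8.34, 8.44 and 11 CPM after feeder removal and 11.3, 11.7 and 11.3 CPM on control feeders. Its highest levels were in p53-defective feeders alone, at 24.5, 25.5 and 29.8 CPM, against 2.77, 3.18 and 2.9 CPM in control feeders. ATN161 and control feeder co-culture missed the threshold (adjusted p = 0.134), as did p53-defective co-culture and feeder removal, whose values overlapped (adjusted p = 0.986). The pairs in these orders that are compared nowhere else had large backgrounds of called genes, at 85.9% for p53-defective co-culture against feeder removal, 82.8% for p53-defective co-culture against control feeders, 85.9% for feeder removal against control feeders and 86.3% for ATN161 against p53-defective feeders.

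**Figure D1:**
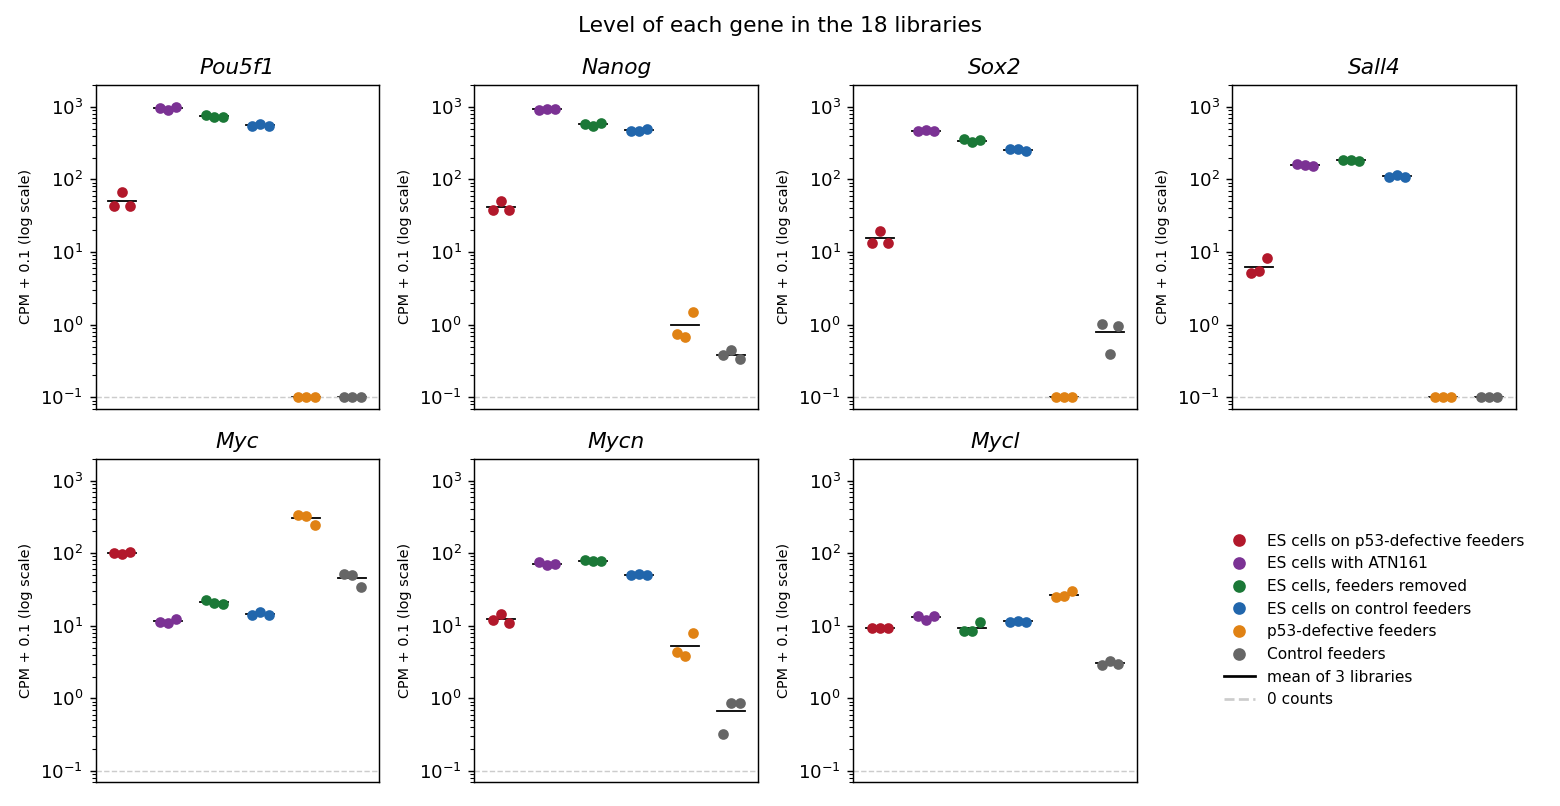
CPM plus 0.1 on a log axis for each of the 7 genes, 1 point per library and a bar at the mean of the 3 libraries of a group, with the dashed line at 0 counts. Pou5f1, Nanog, Sox2 and Sall4 sit lowest, among ES cells, on p53-defective feeders and at or near 0 in feeders alone, while Myc and Mycl are highest in p53-defective feeders (302 and 26.6 CPM on average).

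Levels of different genes were compared with the deposited TPM (transcripts per M transcripts, a value per length). Among the core genes Pou5f1 was the most abundant in each ES cell group, at 47.6 ± 8.23 TPM on p53-defective feeders, 1200 ± 35.8 TPM with ATN161, 1060 ± 28.2 TPM after feeder removal and 837 ± 33.6 TPM on control feeders (SD, n = 3 each). Nanog followed with 21.7 ± 1.76 TPM on p53-defective feeders, 651 ± 22.1 TPM with ATN161, 452 ± 24.5 TPM after feeder removal and 391 ± 12.8 TPM on control feeders. Sox2 came next, with 7.01 ± 1.05 TPM on p53-defective feeders and 288 ± 12 TPM in the ATN161 group, and then Sall4, with 63.4 ± 1.97 TPM after feeder removal as its highest mean. Which Myc gene led differed by culture. Of the summed TPM of the 3 Myc genes, Myc made up 85.0 ± 1.64% in ES cells on p53-defective feeders, 13.5 ± 0.791% with ATN161, 21.1 ± 0.855% after feeder removal and 21.2 ± 0.512% on control feeders (SD, n = 3 each). Mycn made up 9.66 ± 1.58% on p53-defective feeders, 76.1 ± 1.02% with ATN161, 72.5 ± 0.336% after feeder removal and 67.4 ± 0.365% on control feeders. Both kinds of feeder held mainly Myc, with 92.8 ± 2.36% in p53-defective and 94.5 ± 1.54% in control feeders, but the sum of the 3 genes was 261 ± 31.5 TPM in p53-defective and 39.3 ± 7.85 TPM in control feeders. In the 4 ES cell groups the same sum ranged from 50.3 to 73.9 TPM over all 12 libraries. Both co-cultures hold feeder RNA as well as ES cell RNA, and the part of the feeders in these shares was not tested.

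**Figure D2:**
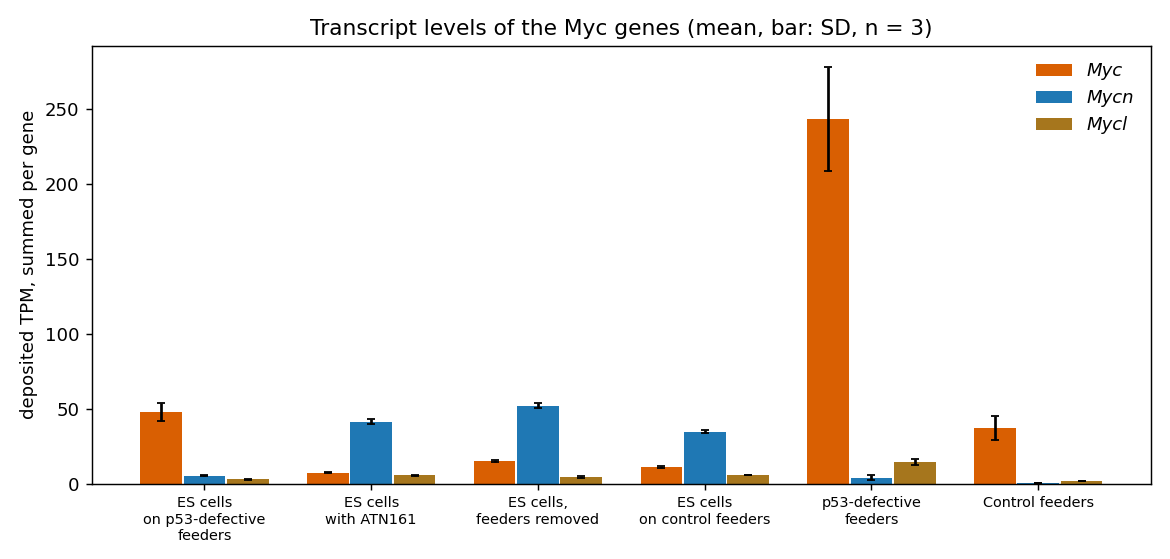
Mean deposited TPM of Myc, Mycn and Mycl in the 6 groups, with bars for the SD over 3 libraries. Mycn is the tallest bar in ES cells with ATN161, after feeder removal and on control feeders (41.4, 51.8 and 34.7 TPM), and Myc is the tallest in ES cells on p53-defective feeders (47.8 TPM) and in both feeder groups (243 and 37.2 TPM). The co-cultures hold feeder RNA as well as ES cell RNA.

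The table was estimated per transcript, and most genes had 1 leading transcript. NM_013633 held at least 99.84% of Pou5f1 counts in every ES cell library. NM_028016 held 90.66 to 94.5% of Nanog counts in the ES cell libraries, and NM_175303 held 67.22 to 82.24% of Sall4 counts. The few Nanog counts of feeders were listed differently. Of 43 Nanog counts in p53-defective feeders 16.8 were on NM_001289831, and of 15 in control feeders 10 were, whereas that transcript held at most 0.17% of Nanog counts in any ES cell library. The feeder counts on this transcript were unevenly spread, with 1.18, 1.25 and 14.35 in p53-defective replicates 1, 2 and 3 and 0, 6 and 4 in control replicates 1, 2 and 3. For Myc, 2 pairs of transcripts were listed with identical counts in every library, so they were not separated. NM_001303121 led for Mycl, with 73.86 to 95.93% of counts in the ES cell libraries.

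In ES cells on p53-defective feeders, set against ES cells on control feeders, Pou5f1, Nanog, Sox2 and Sall4 each fell by at least 10-fold, Mycn fell 4.05-fold and Myc rose 6.92-fold. Pou5f1 was 10.9-fold lower (log2 fold change -3.45 ± 0.13, SE, adjusted p = 1.18e-14) and Nanog 11.3-fold lower (-3.49 ± 0.11, adjusted p = 6.35e-18). The falls of Sox2 (16.6-fold, -4.05 ± 0.12, adjusted p = 5.46e-17) and Sall4 (17.8-fold, -4.15 ± 0.12, adjusted p = 3.32e-16) were larger. Myc had a log2 fold change of 2.79 ± 0.13 (adjusted p = 4.64e-15) and Mycn of -2.02 ± 0.15 (adjusted p = 1.37e-11). Mycl was 1.24-fold lower (-0.31 ± 0.11, adjusted p = 0.0162), a call that was lost without p53-defective co-culture replicate 3 or any 1 of the control feeder co-culture libraries (adjusted p = 0.13 to 0.184). In all 1 gene rose and 6 fell, where 83.4% of all genes tested were called, 36.6% higher and 46.7% lower, so a call by itself sets none of the 7 apart. The 12 ES cell markers fell in the same comparison, with a median log2 fold change of -3.86, against -0.18 over all genes tested.

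A second scaling set the libraries on 427 other ES-specific genes, those at least 8-fold higher in both ES cell groups without feeders than in both feeder groups. With it the median log2 fold change over all genes was 3.17 in place of -0.18, and 90.3% of genes were called, 87.6% higher and 2.74% lower. Pou5f1 then had a log2 fold change of -0.11 ± 0.11 (adjusted p = 0.356). That of Nanog was -0.14 ± 0.10 (adjusted p = 0.203), also short of the threshold, whereas Sox2 (-0.70 ± 0.12, adjusted p = 4.19e-06) and Sall4 (-0.79 ± 0.14, adjusted p = 7.6e-06) still fell. Relative to ES-specific genes Sox2 was thus 1.63-fold and Sall4 1.74-fold lower on p53-defective feeders. Mycn and Mycl turned round on this scale, with log2 fold changes of 1.34 and 3.05, and Myc reached 6.16. The p53-defective feeders alone expressed all 3 Myc genes, and the part of their RNA in these values was not tested.

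**Figure D3:**
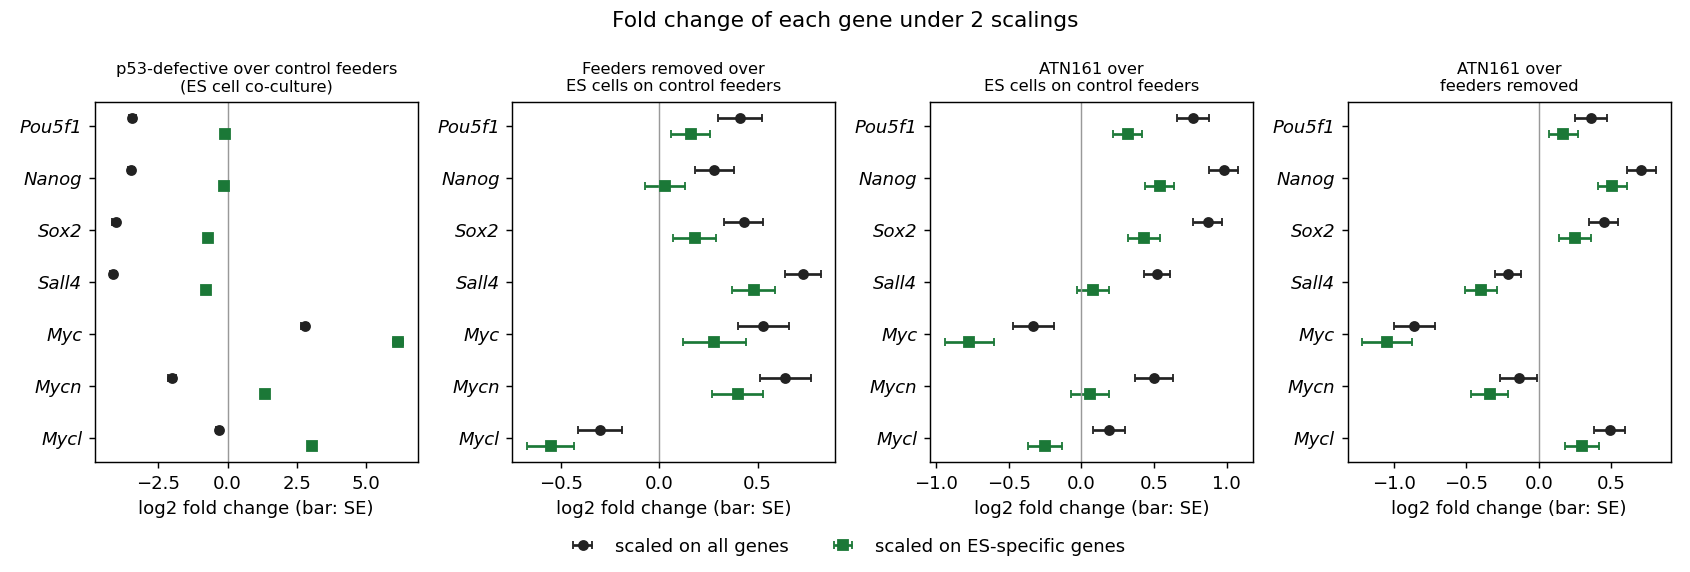
Log2 fold change with its SE for the 7 genes in 4 comparisons of ES cell cultures, scaled on all genes (circles) or on ES-specific genes (squares); in the first panel most SE bars are smaller than the symbols. On p53-defective feeders Pou5f1 moves from -3.45 to -0.11 with the second scaling, while Sox2 (-0.70) and Sall4 (-0.79) stay below 0.

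Ratios of 2 genes within a library do not depend on scaling. The library values of Sox2 per Pou5f1 count were 0.303, 0.294 and 0.313 on p53-defective feeders, 0.481, 0.534 and 0.468 with ATN161, 0.472, 0.453 and 0.469 after feeder removal and 0.479, 0.444 and 0.452 on control feeders. All 3 libraries of p53-defective feeder co-culture lay below the other 9, which overlapped among themselves. Sall4 per Pou5f1 count was 0.114, 0.0798 and 0.193 on p53-defective feeders, with wide spread, against 0.2, 0.195 and 0.199 on control feeders. Nanog per Pou5f1 count was 0.883, 0.75 and 0.875 on p53-defective feeders and 0.863, 0.784 and 0.9 on control feeders, and these ranges overlapped. With ATN161 it was 0.95, 1.06 and 0.949, above the 0.755, 0.743 and 0.824 after feeder removal. Mycn per Myc count was 0.12, 0.149 and 0.105 on p53-defective feeders, 6.58, 6.31 and 5.73 with ATN161, 3.65, 3.74 and 3.92 after feeder removal and 3.53, 3.37 and 3.57 on control feeders. Feeders express Myc too, and the part of their RNA in the ratios of Mycn to Myc was not tested. Of 36 tests of such ratios, 28 were between groups that did not overlap. None could pass, because the smallest p of a two-sided exact permutation test with 3 against 3 libraries is 0.1, and the lowest adjusted p was 0.1286. The share of other gene pairs without overlap was not counted, so the 28 set none of these ratios apart.

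**Figure D4:**
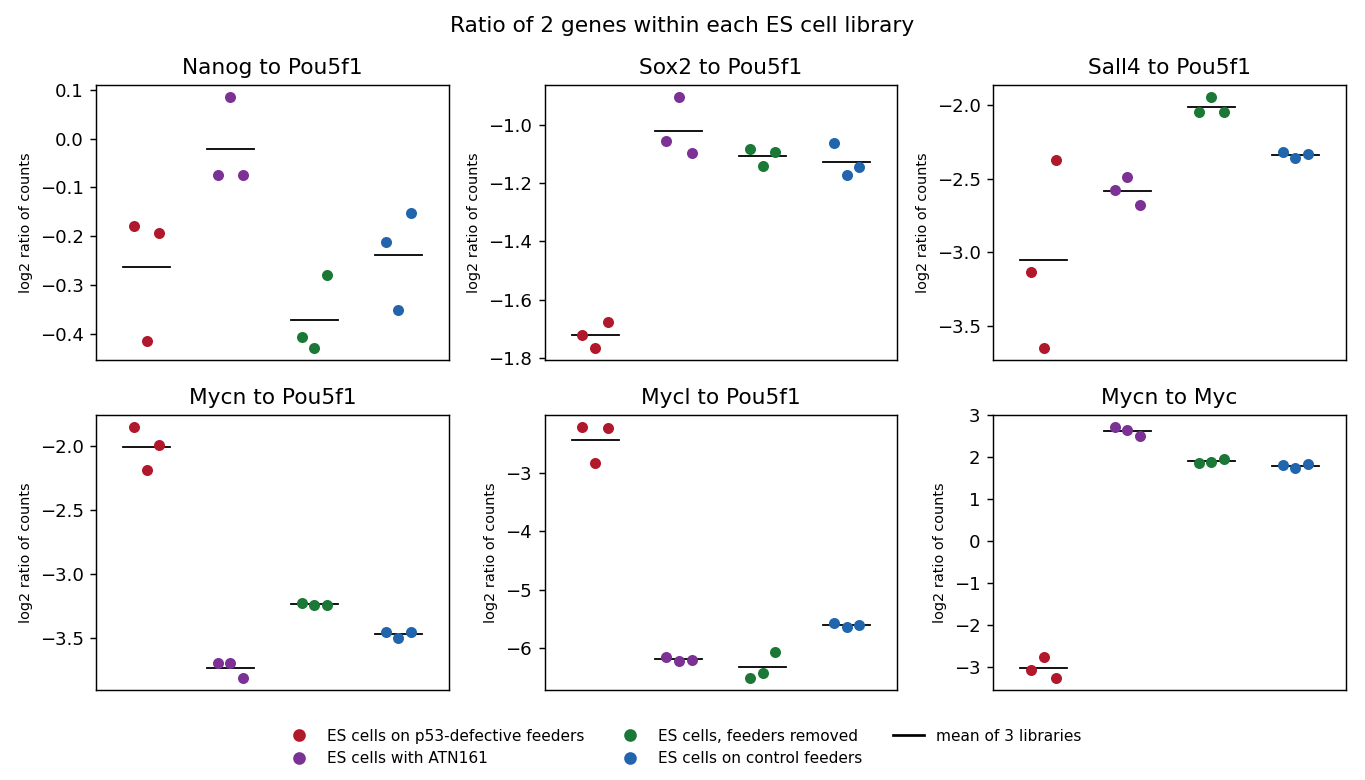
Log2 ratio of the counts of 2 genes within each ES cell library, 1 point per library and a bar at the mean of 3; each panel has its own range on the y axis. Sox2 to Pou5f1 stands apart on p53-defective feeders (mean -1.72, against -1.13 on control feeders), and Mycn to Myc is below 0 in that group alone. The co-cultures hold feeder RNA as well as ES cell RNA.

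Genes around the 7 were counted in the same comparison, from lists of known targets, partners and relatives. Of all genes tested 46.7% were lower and 36.6% higher in it. All 9 measured targets of OCT4 and SOX2 fell (median log2 fold change -3.84), among them Fgf4, a growth factor of ES cells (-4.42 ± 0.10). On ES-specific scaling 5 of the 9 fell and 2 rose. Of 14 genes of OCT4, NANOG and SALL4 partner proteins, 10 fell and 2 rose (median -0.66). Nr0b1, which encodes the OCT4 and NANOG partner DAX1, was among those that fell (-4.30 ± 0.13). Mbd3 (0.91 ± 0.08) and Mta2 (0.60 ± 0.07), both of the NuRD repressor complex, rose. Of 8 measured relatives of SALL4, SOX2 and OCT4, 7 fell, such as Sall1 (-5.87 ± 0.12) and Pou2f1 (-3.54 ± 0.13), and Sall2 rose (0.38 ± 0.10), with a list median of -3.30. On ES-specific scaling 13 of the 14 partner genes were higher and 1 lower, a share near the 87.6% of all genes called higher, and 3 relatives were higher and 3 lower.

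Of 20 MYC targets, 13 fell and 3 rose on p53-defective feeders (median -0.62), where Myc itself rose. The shares over all genes tested, for this and the next 2 lists, were 46.7% lower and 36.6% higher. On ES-specific scaling all 20 were higher, as were 87.6% of all genes, so that count says nothing particular about MYC targets. Those that fell included Odc1, the first enzyme of polyamine synthesis (-1.89 ± 0.10), Tert, the telomerase enzyme (-2.15 ± 0.13), and Cad, an enzyme of pyrimidine synthesis (-1.49 ± 0.11). Ldha, lactate dehydrogenase, rose (2.11 ± 0.09), as did the cell cycle genes Ccnd2 (0.93 ± 0.08) and Cdk4 (0.73 ± 0.08). Of the 10 genes of the MAX network, which hold MAX and the factors that share or oppose its pairing with MYC, 6 fell and 2 rose (median -0.52). Max itself fell (-1.09 ± 0.08). The antagonists Mxi1 (1.96 ± 0.09) and Mxd4 (1.67 ± 0.14) rose, whereas the antagonists Mxd1 (-0.67 ± 0.13) and Mnt (-0.37 ± 0.08) fell, as did Mga (-1.39 ± 0.13). Of 9 regulators of MYC protein turnover, 6 fell and 3 rose (median -1.11), with the deubiquitinase Usp28 (-2.20 ± 0.08) and the ubiquitin ligase subunit Fbxw7 (-2.45 ± 0.10), which act on MYC in opposite directions, both lower. These directions turned on ES-specific scaling, where 9 of the 10 MAX network genes and all 9 turnover regulators were higher, again near the share over all genes.

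Markers of early lineages moved in the same comparison. Of 8 measured (of 12 listed), 5 rose and 3 fell, where 36.6% of all genes tested were higher and 46.7% lower. These markers were not counted on ES-specific scaling. Their summed level was 300 to 321 CPM on p53-defective feeders and 88.0 to 92.0 CPM on control feeders. Gata4 averaged 75.2 ± 3.33 CPM on p53-defective feeders against 1.29 ± 0.337 CPM on control feeders, and Gata6 70.9 ± 4.98 against 7.23 ± 0.458 CPM (SD, n = 3 each), both endoderm factors. The feeders themselves expressed them, Gata4 at 58.7 CPM in p53-defective and 0.479 CPM in control feeders and Gata6 at 98.1 against 4.27 CPM, on average. Eomes, a factor of trophoblast and mesoderm, fell to 1.99 ± 0.181 CPM on p53-defective feeders, against 20.1 ± 1.2 CPM on control feeders. The 12 ES cell markers also fell there, with a median log2 fold change of -3.86. The part of the lower ES cell signal in the fall of Eomes was not tested. Krt8, a keratin of simple epithelia, differed in that it averaged 79.2 ± 1.56 CPM in ES cells on p53-defective feeders, 14.4 ± 0.608 CPM in ES cells on control feeders, 0.385 CPM in p53-defective feeders and 1.80 CPM in control feeders.

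In feeders alone the comparison of p53-defective with control feeders concerns the cells that carry the alteration. All 3 Myc genes were higher in p53-defective feeders, Myc 6.72-fold (log2 fold change 2.75 ± 0.12, adjusted p = 2.64e-15), Mycn 8.98-fold (3.17 ± 0.32, adjusted p = 5.66e-09) and Mycl 9-fold (3.17 ± 0.13, adjusted p = 5.24e-16). Nanog was 2.99-fold higher (1.58 ± 0.43, adjusted p = 0.00206), at 43 counts in 3 p53-defective libraries against 15 counts in 3 control libraries. Without p53-defective replicate 3, the library with the highest value, Nanog had a log2 fold change of 1.06 and was no longer called (adjusted p = 0.0523). Sox2 was listed at 0 in p53-defective feeders and was at least 11-fold higher in control feeders (adjusted p = 1.61e-05), a bound set by 3 counts over the group. Sox2 passed the filter on low counts through the ES cell libraries, and its call ended when only the feeder groups were fitted. Pou5f1 and Sall4 were at 0 in both. Thus 4 genes were higher and 1 lower, where 74.3% of all genes tested were called, 35.9% higher and 38.4% lower.

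Of the 20 MYC targets, 15 rose, 2 fell and 3 were not called in feeders, where 35.9% of all genes were higher and 38.4% lower. Their median log2 fold change was 0.85, against -0.01 over all genes tested. The nucleolar genes Nolc1 (1.79 ± 0.11), Nop58 (1.54 ± 0.11) and Npm1 (1.17 ± 0.09) were among those that rose, and Tert (-0.76 ± 0.13) and Ccnd2 (-0.35 ± 0.08) fell. Of 9 turnover regulators 7 rose, such as the kinase genes Pim3 (3.01 ± 0.08) and Aurka (2.53 ± 0.13), and Fbxw7 fell (-0.84 ± 0.11), with a median of 0.83. Of the MAX network 3 rose, Mxi1 among them (2 ± 0.10), and 4 fell, such as Max (-0.52 ± 0.08), with a median of 0.05, shares near those over all genes. Without p53-defective replicate 1 the rises were 5. Of the 14 partner genes 7 rose, such as Rif1 (2.1 ± 0.11), and Hdac1 fell (-0.33 ± 0.08), with a median of 0.12. Of 9 OCT4 and SOX2 targets Jarid2 rose, 3 fell, Lefty1 and Spp1 among them, and 4 were at 0 in both groups (median 0.00). Of 8 relatives 2 rose and 3 fell (median -0.53). Scaling on ES-specific genes, which rests here on genes that feeders hardly express, left the 3 Myc genes higher, at log2 fold changes of 3.14 to 3.57, with 49.5% of genes called higher and 26% lower.

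The changes of Mycn and Mycl with the p53 label ran in opposite directions in feeders alone and in co-culture on the TMM scale, though not on ES-specific scaling, where both were also higher in co-culture (1.34 and 3.05). The fall of Mycl in co-culture was lost without any 1 of 4 libraries. The difference between the 2 contrasts was tested as an interaction. It was -5.19 ± 0.34 for Mycn (adjusted p = 4.32e-12) and -3.48 ± 0.17 for Mycl (adjusted p = 3.31e-14) on the log2 scale. For Myc it was 0.04 ± 0.17 (adjusted p = 0.846), since Myc was 6.92-fold higher in co-culture and 6.72-fold higher in feeders alone. For Nanog it was -5.07 ± 0.44 (adjusted p = 5.42e-10). Of all genes tested 73.6% had a called interaction, 38.8% higher and 34.8% lower, and of the 7 genes 3 were lower. Pou5f1, Sox2 and Sall4 have no such value, because at least 1 feeder group had no counts. With ES-specific scaling the interaction of Myc became 3.02 ± 0.22 (adjusted p = 1.04e-13). Those of Mycn (-2.23 ± 0.33), Mycl (-0.51 ± 0.19) and Nanog (-2.13 ± 0.40) stayed lower. On that scale 87.9% of genes were called, 84.5% higher and 3.38% lower. In feeders alone this scaling rests on genes that they hardly express, so the Myc value does not set that gene apart.

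Each co-culture was also set against its own feeders. ES cells on p53-defective feeders had 3.02-fold less Myc (log2 fold change -1.59 ± 0.11, adjusted p = 1.74e-11) and 2.88-fold less Mycl (-1.52 ± 0.11, adjusted p = 1.73e-11) than those feeders alone, while 11 of 12 fibroblast markers were higher (median 1.60). Mycn was 2.38-fold higher (1.25 ± 0.18, adjusted p = 1.67e-06) and Nanog 47.7-fold higher (5.58 ± 0.18, adjusted p = 4.71e-17). Pou5f1 was at least 837-fold, Sox2 at least 252-fold and Sall4 at least 101-fold higher. In total 5 genes were higher and 2 lower, where 79.7% of all genes were called, 46.7% higher and 33.0% lower. On ES-specific scaling, where 87.2% of genes were called, 5.21% higher and 82.0% lower, Mycn turned round, to -1.19. ES cells on control feeders, set against control feeders, were 3.11-fold lower in Myc (-1.64 ± 0.13, adjusted p = 5.9e-11) and higher in the other 6 genes. Those rises were 3.87-fold for Mycl, 86.6-fold for Mycn, 366-fold for Sox2 and 1610-fold for Nanog, and at least 9699-fold for Pou5f1 and 1921-fold for Sall4. Here 84.2% of all genes were called, 44.3% higher and 39.9% lower. On ES-specific scaling Mycl turned round to -3.45, with 94.3% of genes called, 3.16% higher and 91.1% lower. The scaling genes were chosen for being low in feeders, so this scaling moves co-cultures down against feeders alone. On it the median log2 fold change over all genes was -5.33 for control co-culture and -2.15 for p53-defective co-culture. The turns of Mycl and Mycn therefore set neither gene apart.

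The next 2 comparisons share the 3 libraries of control feeder co-culture with the first. After feeder removal, set against ES cells on control feeders, 6 of the 7 genes were modestly higher. Sall4 rose most, 1.66-fold (log2 fold change 0.73 ± 0.09, adjusted p = 3.98e-06), followed by Mycn, 1.56-fold (0.64 ± 0.13, adjusted p = 2.09e-04), and Myc, 1.45-fold (0.53 ± 0.13, adjusted p = 0.00199). Smaller rises were those of Sox2 (0.43 ± 0.10, adjusted p = 0.00169), Pou5f1 (0.41 ± 0.11, adjusted p = 0.00611) and, least of all, Nanog (0.28 ± 0.10, adjusted p = 0.0192). Mycl was 1.23-fold lower (-0.30 ± 0.11, adjusted p = 0.0266). Of all genes tested 52.0% were called, 25.5% higher and 26.5% lower, and 11 of the 12 ES cell markers rose (median 0.45). The call of Nanog was lost without any 1 library of the comparison except feeder removal replicate 2, that of Pou5f1 without feeder removal replicate 1 (adjusted p = 0.0502) or control feeder co-culture replicate 1 (adjusted p = 0.0537), and that of Mycl without feeder removal replicate 1 or 2. On ES-specific scaling, with a median of -0.25 over all genes in place of -0.01 and 52.1% of genes called, 9.9% higher and 42.2% lower, only Sall4 (0.48 ± 0.11, adjusted p = 0.00103) and Mycn (0.40 ± 0.13, adjusted p = 0.0122) were still higher, and Mycl (-0.55 ± 0.12) was lower.

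Around them, 6 of 9 OCT4 and SOX2 targets rose after feeder removal (median 0.43), such as Lefty1, an inhibitor of NODAL (0.95 ± 0.10), and Zfp42, which encodes REX1 (0.81 ± 0.07), and Spp1 fell (-0.28 ± 0.10), a count of 1 fall that became 0 without control feeder co-culture replicate 3. Of 14 partner genes 9 rose and 1 fell (median 0.34), with Rif1 (1.51 ± 0.10) and Nr0b1 (1.10 ± 0.09) higher and Mta1 lower (-0.19 ± 0.07), the last not called without feeder removal replicate 2. Of 20 MYC targets 15 rose (median 0.39), among them Npm1 (0.89 ± 0.09), Wdr43 (0.85 ± 0.10) and Ncl (0.79 ± 0.09), and Ldha (-0.98 ± 0.09) and Ccnd2 (-0.54 ± 0.08) fell. The MAX network had 4 rises, Mga among them (0.93 ± 0.13), and 2 falls (median 0.11). Of 9 turnover regulators 6 rose and Pim1 fell (median 0.25), with 0 rises left without control feeder co-culture replicate 1 and 2 without replicate 3 of it or without replicate 1 or 2 of feeder removal. Of 8 relatives 3 rose, such as Pou2f1 (0.97 ± 0.11), and 2 fell (median 0.04). ES-specific scaling gave 2 targets of OCT4 and SOX2 higher and 2 lower, and 4 partner genes higher and 1 lower. It gave 6 MYC targets higher and 2 lower, and 1 gene of the MAX network higher and 4 lower. The turnover regulators had 0 higher and 1 lower on that scale, and the relatives 3 higher and 3 lower. Over all genes tested 25.5% were higher and 26.5% lower on the TMM scale, against 9.9% and 42.2% on ES-specific scaling.

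With ATN161 in place of feeders, set against ES cells on control feeders, the core genes were higher and Nanog changed most. Nanog rose 1.98-fold (log2 fold change 0.98 ± 0.10, adjusted p = 1.25e-08), Sox2 1.83-fold (0.87 ± 0.10, adjusted p = 4.36e-07), Pou5f1 1.70-fold (0.77 ± 0.11, adjusted p = 1.41e-05) and Sall4 1.44-fold (0.52 ± 0.09, adjusted p = 9.73e-05). Mycn rose 1.42-fold (0.50 ± 0.13, adjusted p = 0.00164). Myc was 1.25-fold lower (-0.33 ± 0.14, adjusted p = 0.0484), and leaving out any library of ATN161 or control feeder co-culture replicate 2 ended that call, as did limma-voom (adjusted p = 0.0969). Mycl had a log2 fold change of 0.19 ± 0.11 (adjusted p = 0.134). Of all genes 61.6% were called, 33.6% higher and 28% lower, against 5 higher and 1 lower of the 7. The 12 fibroblast markers fell (median -2.05) and the 12 ES cell markers rose (median 0.76). On ES-specific scaling, with the median of all genes at -0.37 and not 0.07 and 55.8% of genes called, 4.37% higher and 51.4% lower, Nanog (0.54 ± 0.10), Sox2 (0.43 ± 0.11) and Pou5f1 (0.32 ± 0.10) were still higher. Sall4 (0.08 ± 0.11) and Mycn (0.06 ± 0.13) were not called on that scale, Myc was lower (-0.77 ± 0.17), and Mycl had -0.25 ± 0.12 (adjusted p = 0.0652).

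Of 9 OCT4 and SOX2 targets 7 rose with ATN161 (median 0.52), such as Fgf4 (0.93 ± 0.07), Fbxo15 (0.89 ± 0.10) and Utf1 (0.79 ± 0.09), and Lefty1 fell (-0.57 ± 0.11). Of 20 MYC targets 17 rose (median 0.56), with Npm1 (0.78 ± 0.09) and Ncl (0.78 ± 0.09) among them, and Ccnd2 fell to 30.6 CPM with ATN161 against 214 CPM on control feeders (-2.81 ± 0.09). In the MAX network the antagonists Mxd1 (-1.09 ± 0.13), Mxd4 (-1.17 ± 0.16) and Mnt (-0.61 ± 0.08) fell and Mxd3 rose (1.15 ± 0.19), with 4 falls and 4 rises in all (median 0.00). The number of rises in the network was 1 without control feeder co-culture replicate 1 and 2 without replicate 2 or 3. Of 14 partner genes 8 rose and 6 were not called (median 0.31), Wdr5 (0.72 ± 0.07) and Hdac2 (0.61 ± 0.06) among the rises, and 1 was lower without any 1 library of control feeder co-culture. Of 9 turnover regulators 6 rose and Pim1 fell (median 0.34), the fall being lost without any 1 of the ATN161 libraries. Of 8 relatives 3 rose, Sox1 (1.62 ± 0.15) and Sox15 (1.09 ± 0.12) among them, and 3 fell (median -0.21). On ES-specific scaling 2 MYC targets were higher and 2 lower, 3 targets of OCT4 and SOX2 higher and 2 lower, and 1 partner gene higher and 6 lower. On that scale 0 turnover regulators were higher and 3 lower, 1 MAX network gene higher and 6 lower, and 2 relatives higher and 5 lower.

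ES cells with ATN161 were also set directly against ES cells after feeder removal. Nanog was 1.63-fold higher with ATN161 than after feeder removal (log2 fold change 0.71 ± 0.10, adjusted p = 2.41e-06), Sox2 1.36-fold (0.45 ± 0.10, adjusted p = 0.00111) and Pou5f1 1.28-fold (0.36 ± 0.11, adjusted p = 0.0124). Myc was 1.82-fold lower with ATN161 (-0.86 ± 0.14, adjusted p = 1.9e-05) and Mycl 1.41-fold higher (0.49 ± 0.11, adjusted p = 7.43e-04). Mycn had -0.14 ± 0.13 and Sall4 -0.21 ± 0.09, which missed the threshold, though Sall4 passed it with DESeq2 (adjusted p = 0.00896) and limma-voom (adjusted p = 0.0127). Of the 7 genes 4 were higher and 1 lower, where 55.4% of all genes were called, 28.6% higher and 26.8% lower. Fibroblast markers were lower with ATN161 in 11 of 12 cases (median -2.03). The call of Pou5f1 was lost without feeder removal replicate 2 or 3. On ES-specific scaling, with the median of all genes at -0.16 and not 0.03 and 12.2% of genes higher against 35.6% lower, Nanog (0.51 ± 0.10, adjusted p = 1.23e-04) and Mycl (0.30 ± 0.12) stayed higher and Myc (-1.05 ± 0.17), Sall4 (-0.40 ± 0.11) and Mycn (-0.34 ± 0.13) were lower.

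Of the 20 MYC targets only 3 rose and 2 fell between ATN161 and feeder removal, with a median of 0.02, and Ccnd2 moved furthest (-2.27 ± 0.09). The rises were 1 without feeder removal replicate 2 or 3. Of 9 OCT4 and SOX2 targets 5 rose, Spp1 among them (0.66 ± 0.10), and 2 fell, including Lefty1 (-1.52 ± 0.11, list median 0.35), with 1 fall in 5 of the 6 fits without 1 library. Partner genes had 2 rises, 1 without feeder removal replicate 2, and 4 falls (median 0.03), with Rif1 (-0.97 ± 0.10) and Zfp281 (-0.69 ± 0.07) lower with ATN161. Of the MAX network 2 rose and 4 fell (median -0.26), and of 9 turnover regulators 4 rose and Usp36 fell (median 0.08), with 0 falls without ATN161 replicate 2 and 2 without feeder removal replicate 1 or 3. Of 8 relatives 3 rose and 4 fell, such as Pou2f1 (-1.46 ± 0.11, list median -0.21). On ES-specific scaling 0 MYC targets were higher and 4 lower, 0 partner genes higher and 5 lower, and 0 turnover regulators higher and 2 lower. On that scale 1 MAX network gene was higher and 6 lower, and 4 targets of OCT4 and SOX2 were higher and 3 lower. The relatives kept 3 higher and 4 lower. Over all genes tested 28.6% were higher and 26.8% lower on the TMM scale, against 12.2% and 35.6% on ES-specific scaling.

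Over all 18 libraries the log2 CPM of Pou5f1 correlated with that of Nanog at Pearson r = 0.993, of Sall4 at 0.992, of Sox2 at 0.978 and of Mycn at 0.92, with that of Myc at -0.758 and with that of Mycl at 0.148. The libraries fall into ES cell cultures and feeders, which sets much of these values, so they are given as a description. The 3 genes most like each in this measure were Trap1a, Tdgf1 and 1700013H16Rik for Pou5f1 (r = 0.9996, 0.9994 and 0.9993) and Nlrp4f, Epcam and Esrrb for Nanog (0.9985, 0.9969 and 0.9964). For Sox2 they were Ooep, Wfdc2 and H2-Eb1 (0.9982, 0.9965 and 0.9958), and for Sall4 Zfp42, Grik3 and Utf1 (0.999, 0.9988 and 0.9987). The Myc genes had looser matches, with Cxadr, Fzd6 and Thap12 for Myc (0.9847, 0.9808 and 0.98), Pramel16, LOC108168684 and Bcam for Mycn (0.9907, 0.9907 and 0.9893) and Xlr3b, Gcn1 and Zfp512 for Mycl (0.9709, 0.9517 and 0.9516).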

How the data were processed

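Counts came from 1 deposited table of 18 mouse mRNA libraries. Per the labels' protocols, RNA was extracted with Trizol and libraries were made with an Illumina TruSeq mRNA kit. Tools listed without a role, per the submitters' processing notes, were DESeq2 1.2.10, StringTie 1.3.3b, HISAT2 2.1.0 and SAMtools 1.4, with the build mm10 (GRCm38). Strandedness is not stated, so reads of overlapping antisense genes cannot be told apart.

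The authors deposited expected counts, estimated read counts per RefSeq transcript that were not normalised, and TPM, for 75416 transcripts (32625 curated, 42791 predicted). Expected counts were summed per Entrez gene to 19630 genes and rounded, and 89.26% of the sums were whole within 0.05. The deposited TPM was summed per gene and used only for levels between genes. Deposited FPKM (per kilobase and M fragments, by the authors), the authors' normalised counts (a signal scaled by the authors in a way not given in the sources used here) and the authors' group means were not used.

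Of these genes 15389 passed filterByExpr and 4241 did not. Tests were edgeR 4.0.16 in R 4.3.3 (TMM, two-sided quasi-likelihood F test, robust) on a single fit of all 18 libraries, adjusted over all genes tested (Benjamini-Hochberg, threshold 0.05). The SE is the log2 fold change divided by the square root of the F statistic. Correlations used log2 CPM with a prior count of 2. Where a group had no counts, folds are bounds against 3 counts over the group. These floors cover counting error only. The biological coefficient of variation (common to all genes) was 0.0792. Replicates differed by 1.94 to 42.15 times counting noise per degree of freedom, so each was counted as 1 sample. The fits were tested on simulated data.

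The genes, lists and comparisons were chosen with earlier results of these data known. Named were the 7 genes, up to 4 list members with the smallest p and those against the majority, and the 3 most like genes. Alternatives were DESeq2 1.42.0 size factors and Wald test, limma-voom (limma 3.58.1), no filter, at least 5 CPM in 3 libraries, a replicate block, fits to only the groups compared, leave-one-out fits, scaling on ES-specific genes (8-fold, at least 10 CPM) and curated transcripts. Promoters came from RefSeq, where 5 of the 7 genes were matched (not Sall4 and Myc).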

Additional observations from a re-analysis of the deposited data

Results flagged for a closer look

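The difference between the co-culture effect and the feeder effect of the p53 label was tested as an interaction. It passed for 3 of the 4 genes in which it could be fitted, near the 73.6% of all genes tested that passed. For Mycn it was -5.19 on the log2 scale: the level was 12.4 CPM in ES cells on p53-defective feeders against 50.4 CPM on control feeders, and 5.23 CPM in p53-defective feeders against 0.577 CPM in control feeders, on average. For Nanog it was -5.07, with 41.9 CPM on p53-defective against 472 CPM on control feeders in co-culture, and 0.874 against 0.287 CPM in feeders alone. For Mycl it was -3.48, with 9.24 against 11.4 CPM in co-culture and 26.6 against 2.95 CPM in feeders alone. Each co-culture holds feeder RNA as well as ES cell RNA, and the part of the mixture in these differences was not tested. On ES-specific scaling Mycn and Mycl were higher on p53-defective feeders in co-culture too (log2 fold changes of 1.34 and 3.05), and the fall of Mycl in co-culture was lost without any 1 of 4 libraries. The interaction of Myc, not called on the TMM scale, was called on ES-specific scaling (3.02), where 87.9% of all genes were called, 84.5% higher. In feeders alone that scaling rests on genes that they hardly express, so the call does not set Myc apart.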

How the results depend on the processing

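Of the 45 log2 fold changes of the 7 genes, the number that kept both direction and side of the threshold was 45 with DESeq2 size factors and with the replicate block, 44 with DESeq2's Wald test, 43 with limma-voom and with the 5 CPM filter, 42 without a filter, with only the groups compared and with curated transcripts, and 27 with scaling on ES-specific genes. Replicate numbers did not pair the libraries by the rule that every same-numbered pair correlates above 0.1 in its deviations. The correlations were -0.058, 0.009 and -0.033 for co-culture, 0.107, 0.054 and 0.223 for feeders alone, where all were positive, and 0.064, 0.057 and 0.107 for ATN161 over feeder removal. With the replicate block 12799 genes were called between the co-cultures, against 12827, and 11385 between the feeders, against 11433. Scaling on ES-specific genes gave, for p53-defective over control co-culture, 3 of the 7 genes higher and 2 lower, with Mycn at 1.34 and Mycl at 3.05 reversed. It gave 2 higher after feeder removal, 3 higher for ATN161 over control co-culture (Mycl reversed at -0.25) and 2 higher and 3 lower for ATN161 over feeder removal. It also gave 2 lower for control co-culture over its feeders (Mycl reversed at -3.45), Mycn reversed at -1.19 for p53-defective co-culture over its feeders, and 1 higher in the interaction. These last values include feeders alone, where the scaling rests on genes chosen for being low there. For ATN161 over feeder removal 2 genes were lower with DESeq2's Wald test, limma-voom, no filter or the 5 CPM filter, and 3 with only the groups compared. No gene (0) was lower for ATN161 over control co-culture with limma-voom, or between feeders with only the groups compared, where edgeR had called 1. The cause of these shifts was not tested.

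Leaving out 1 library, the genes called lower were 0 to 1 after feeder removal and 0 to 1 for ATN161 over control co-culture, and those called higher after feeder removal were 4 to 6. The interaction of Myc ran from -0.08 to 0.21, reversed at -0.08 without p53-defective feeders replicate 3 and at -0.06 without control feeders replicate 1. The difference in the log2 ratio of Nanog to Pou5f1 between p53-defective and control co-culture ran from -0.08 to 0.05. It was 0.05 without p53-defective co-culture replicate 2 and 0.02 without control co-culture replicate 3. The difference in the log2 ratio of Sox2 to Pou5f1 between feeder removal and control co-culture ran from 0.00 to 0.05. CPM per kb of the longest transcript was not run, because the tables used gave no transcript lengths. Depth limits Sox2 and Nanog in feeders, which rest on 36 and 15 counts in control feeders.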
